A study of Mus musculus with 6 samples.

Results

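The genes described here encode the machinery that copies DNA in S phase, from the helicase that opens the double helix to the enzymes that supply nucleotides. They were chosen by name: 42 genes were listed, and a gene was measured if the array's annotation gave at least 1 probe set its symbol alone. Of the 42, 41 were measured, out of 18193 genes on the array, and Chaf1a, a histone chaperone gene, was not matched to such a probe set. Expression was compared between 3 arrays from mice after MCAO, the occlusion of the middle cerebral artery that serves as a model of ischaemic stroke, and 3 arrays from mice with sham surgery. All animals were adult male C57BL/6 mice killed 48 h after surgery, and total RNA came from the SVZ (subventricular zone), a layer along the lateral ventricle where neurons are born in adults, on the lesioned side after MCAO. The length of the occlusion is not given in the sources used here.

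Before S phase, the origin recognition complex, Cdc6 and Cdt1 load the MCM helicase onto DNA in an inactive form. At the start of S phase Cdc45 and the GINS complex join it, and DNA polymerases, held by the PCNA clamp, copy the strands it opens. Many of the genes involved are switched on by E2F transcription factors once cyclin-dependent kinases inactivate the retinoblastoma protein. In the adult SVZ the dividing cells are mainly progenitors of olfactory neurons, while microglia, infiltrating cells and glia can also divide after injury.

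Values are log2 expression per probe set after quantile normalization between arrays, and a gene with several probe sets is represented by the brightest. Pearson's r across genes lay between 0.975 and 0.992 for pairs of arrays. Both arrays numbered 1 stood apart in the control probe sets for RNA spiked in at labelling. On the values as deposited, their mean over 27 probe sets was 7.46 log2 on MCAO 1 and 7.71 on sham 1, against 8.33 to 8.83 on the other 4 arrays. Markers of the labelled tissue were present: in sham, 8 of 9 neuroblast markers and 7 of 8 ependymal markers lay above the median gene. So did all 7 markers of striatal neurons, which are not SVZ cells. Their mean log2 level in sham arrays was 11.35 to 11.60, against 8.51 to 8.64 for neuroblast and 7.99 to 8.79 for ependymal markers. Because the tissue was measured in bulk, more cells in S phase and more RNA per cell cannot be told apart.

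Nearly all replication genes were higher after MCAO, by modest amounts. Of the 41 measured, 40 had a higher mean in MCAO than in sham, against 47.7% of all genes, and the median difference was 0.27 log2, against -0.0064 over all genes. In limma's test, with p-values adjusted after Benjamini and Hochberg over all genes, 3 rose, 0 fell and 38 did not pass, where 1.12% of all genes rose and 0.0165% fell (1.13% in either direction). The 3 were Tk1, Mcm5 and Pcna. With the sample number as a block, which compares same-numbered arrays with each other, 19 rose, 0 fell and 22 did not pass, where 4.82% of all genes rose and 1.30% fell (6.12% in either direction). At an unadjusted p under 0.05 without the block, 23 members were higher and 0 were lower, where 6.32% of all genes were higher at that p (8.77% in either direction). The block's calls included all 6 subunits of the MCM helicase.

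The spread of single arrays shows how uniform the difference was. In 24 of the 41 genes all 3 MCAO values lay above all 3 sham values, as they did in 8.43% of all genes, and in 0 did all 3 lie below. Within same-numbered arrays, 33 of the 41 were higher in MCAO in all 3 pairs, against 20% of all genes (3634 of 18193). The median difference was 0.34 log2 in pair 1, 0.22 in pair 2 and 0.32 in pair 3, with 39, 36 and 38 genes higher. Pair 2 gave the smallest difference of the 3 in 27 genes. No member reached a 2-fold difference, a size that 0.495% of all genes reached upward, and 10 of the 41 were at least 0.5 log2 higher, as were 2.15% of all genes.

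**Figure D1:**
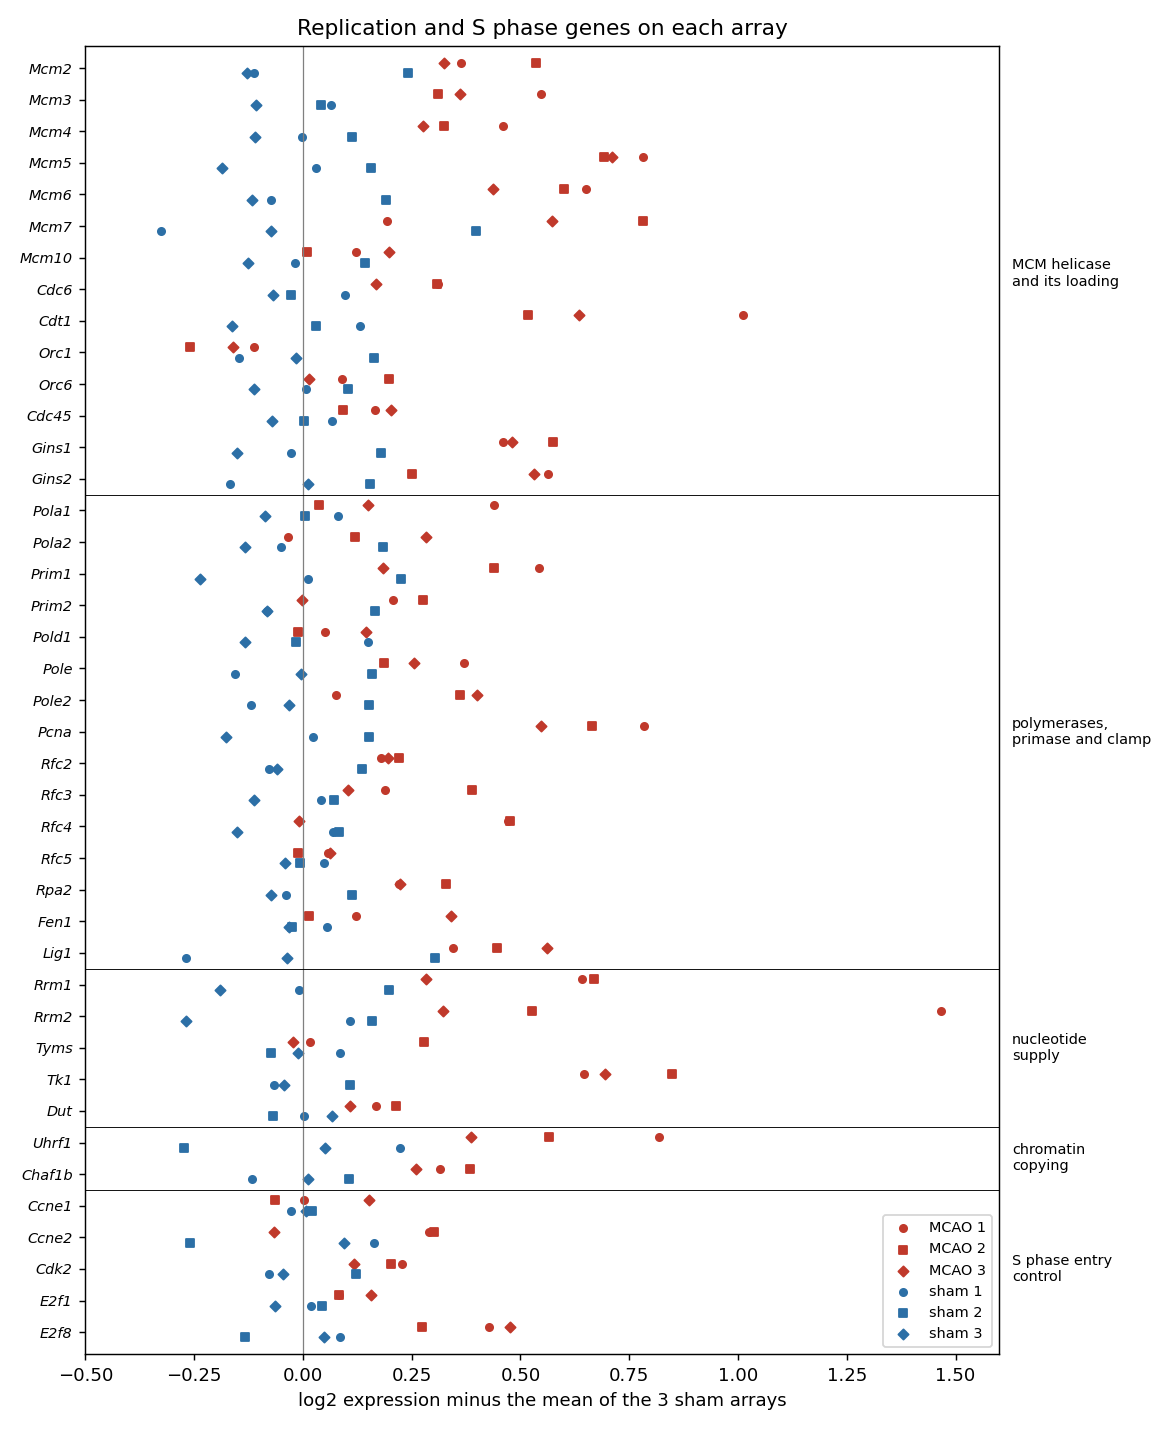
Log2 expression of the 41 measured genes on each array, minus the mean of the 3 sham arrays, with MCAO arrays in red above sham arrays in blue and symbols marking the sample number. Red points lie right of all blue points in 24 genes, and Orc1 is the gene whose MCAO mean lies left of the sham mean.

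The helicase subunits were all higher after MCAO. Mcm5 (probe set 1436808_x_at; gene at chr8:75109468-75128439, GRCm38.p6) read 8.50, 8.41 and 8.43 on MCAO arrays 1, 2 and 3, against 7.75, 7.88 and 7.53 on sham arrays 1, 2 and 3. The groups did not overlap, the MCAO arrays lay close together, and Mcm5 rose 1.66-fold, by 0.73 log2 with a standard error (SE) of 0.099 (n = 3 per group; adjusted p = 0.0161). Its call was lost without MCAO 2 (adjusted p = 0.0559), MCAO 3 (0.0802) or sham 3 (0.0734), while the difference stayed between 0.63 and 0.81 whichever array was left out. Another Mcm5 probe set differed by 0.56 log2 and the dimmest by -0.021.

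Mcm6 read 8.46, 8.41 and 8.25 in MCAO, against 7.74, 8.003 and 7.69 in sham. The groups did not overlap, and the difference of 0.56 ± 0.11 log2 (SE) had an adjusted p of 0.0632 without the block and 0.00171 with it. Mcm7, which read 9.33, 9.92 and 9.71 in MCAO and 8.82, 9.54 and 9.07 in sham, was the helicase subunit whose groups overlapped. Both arrays numbered 1 were the lowest of their group for Mcm7 and both numbered 2 the highest, so that the differences within pairs were 0.52, 0.38 and 0.65. Its mean difference was 0.52 ± 0.21, at an adjusted p of 0.505 without the block and 0.00221 with it.

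Smaller differences were read for the other helicase subunits. Mcm2 stood at 8.10, 8.28 and 8.07 in MCAO, against 7.63, 7.98 and 7.61 in sham, a difference of 0.41 ± 0.12 (adjusted p = 0.254, and 0.00697 with the block). Mcm3 stood at 7.47, 7.23 and 7.28 in MCAO, against 6.98, 6.96 and 6.81 in sham, a difference of 0.41 ± 0.092 (adjusted p = 0.122, and 0.00859 with the block). For Mcm4 the MCAO arrays gave 8.45, 8.32 and 8.27, against 7.99, 8.10 and 7.88 in sham, a difference of 0.35 ± 0.089 (adjusted p = 0.173, and 0.0196 with the block). In all 3 genes every MCAO array exceeded every sham array.

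The brightest probe set was not always the one with the clearest difference. When each probe set was tested on its own and adjusted over all 34945 probe sets with 1 symbol, a dimmer Mcm2 probe set read 0.55 ± 0.085 log2 higher (adjusted p = 0.0422), against 0.41 for the brightest. Of the 5 Mcm3 probe sets, all were higher in MCAO, by 0.16 to 0.68 log2, and 2 passed (adjusted p = 0.0126 and 0.0409). Counted in this way, with a choice made after seeing the data, 6 of the 41 genes had a probe set that rose: Mcm2, Mcm3, Mcm5, Cdt1, Pcna and Tk1. Over all 18193 genes, 1.06% had such a probe set.

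The promoters of these genes were read for the motif bound by E2F factors, searched on both strands as TTTCCCGC, TTTCGCGC, TTTGCCGC or TTTGGCGC in the 250 bases before each RefSeq start (GRCm38.p6). The motif stood before 9 of the 34 measured members with a promoter entry (26.5%), against 3.15% of the 14452 measured genes with one. The share was alike, 26.3% (15 of 57), in the other replication and S phase genes described below. In genes of G2 and mitosis it was 3.03% (1 of 33). The sequence is given for the 4 genes in which the stretch lies outside the annotated gene: Mcm5 and Mcm6, among the larger differences, and Rfc3 and Cdk2, which did not pass with or without the block. The stretches are at chr8:75109326-75109397 (plus strand), chr1:128359715-128359845 (minus), chr5:151651209-151651248 (minus) and chr10:128705154-128705221 (minus), written 5′ to 3′ with the motif in capitals.
Mcm5: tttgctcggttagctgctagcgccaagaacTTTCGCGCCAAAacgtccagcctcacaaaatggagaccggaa
Mcm6: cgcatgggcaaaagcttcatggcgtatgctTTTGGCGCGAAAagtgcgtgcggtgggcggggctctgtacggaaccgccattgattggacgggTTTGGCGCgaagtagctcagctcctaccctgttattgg
Rfc3: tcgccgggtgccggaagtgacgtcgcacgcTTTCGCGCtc
Cdk2: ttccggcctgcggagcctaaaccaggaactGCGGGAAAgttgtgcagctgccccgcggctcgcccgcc

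In Mcm5 the capitals hold 2 matches on opposite strands that overlap, and in Mcm6 an overlapping pair is followed by another match that begins 47 bases before the start. The 9 members with the motif had a median difference of 0.26 log2 and ran from -0.18 for Orc1 to 0.73 for Mcm5. The 25 members with a promoter entry and no match had a median of 0.28. The motif stood before genes at both ends of the range. The letters CCAAT, the box bound by NF-Y, stood before 19 of the 34 members (55.9%), against 39.4% of all genes with an entry. TTTGAA, the cell cycle homology region of mitotic genes, stood before 4 (11.8%), against 14.1%. In the other replication genes these shares were 52.6% and 17.5%, and in genes of G2 and mitosis 75.8% and 30.3%. A match is a description of the letters, and overlaps with the other motifs were not excluded.

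Loading and activation factors differed among themselves more than the helicase subunits did. Cdt1, which brings the helicase to origins, read 7.98, 7.49 and 7.61 in MCAO, against 7.10, 7.003 and 6.81 in sham. MCAO 1 was the highest array, every MCAO array exceeded every sham array, and the difference was 0.72 ± 0.14 log2 (SE; adjusted p = 0.0711, and 6.17e-04 with the block). Another Cdt1 probe set rose by 0.57 when tested on its own (adjusted p = 0.0359), and the dimmest read 0.028. Cdc6, the ATPase that works with Cdt1, had 6.42, 6.42 and 6.28 in MCAO, against 6.21, 6.08 and 6.04 in sham. That difference of 0.26 ± 0.082 did not pass with or without the block (adjusted p = 0.306, and 0.0511 with it), although the groups did not overlap.

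Of the GINS subunits, Gins1 read 7.07, 7.19 and 7.10 in MCAO, against 6.59, 6.79 and 6.46 in sham, a difference of 0.50 ± 0.099 (adjusted p = 0.0730, and 0.00229 with the block). Its dimmer probe set read 0.032 higher. Gins2 read 7.32, 7.01 and 7.29 in MCAO, against 6.59, 6.91 and 6.77 in sham, a difference of 0.45 ± 0.12 (adjusted p = 0.191, and 0.0338 with the block). Neither overlapped between groups, but the pair numbered 2 differed by 0.097 in Gins2, against 0.73 and 0.52 in the others. Cdc45, their partner in the active helicase, was 0.15 higher with an adjusted p of 0.668, and 0.282 with the block.

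The origin recognition genes and Mcm10, a factor of origin firing, did not pass in either test. Orc1 read 6.68, 6.53 and 6.63 in MCAO, against 6.64, 6.95 and 6.77 in sham, a difference of -0.18 ± 0.097 (adjusted p = 0.735, and 0.322 with the block). It was the 1 member with a lower mean in MCAO, and its other, dimmer probe set read 0.039 higher. Orc6 was 0.10 ± 0.088 higher (adjusted p = 0.905) and Mcm10 0.11 ± 0.094 higher (adjusted p = 0.902), with 0.482 and 0.582 under the block. Of the 14 genes of this group 1 rose without the block and 9 with it, and 10 had groups that did not overlap, with a median of 0.41 log2. Over all genes, 1.12% rose without the block, 4.82% rose with it, and 8.43% had all MCAO arrays above all sham arrays.

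Among polymerases, primase and clamp genes, the clamp stood out. Pcna (probe set 1417947_at; gene at chr2:132249286-132253180), which encodes the sliding clamp, read 11.30, 11.18 and 11.06 in MCAO, against 10.54, 10.67 and 10.34 in sham. Without overlap between the groups it rose 1.59-fold, by 0.66 ± 0.11 log2 (SE of 3 arrays per group; adjusted p = 0.0344). This call depended on single arrays: it was lost without any array but sham 2, at adjusted p from 0.0698 without MCAO 1 to 0.150 without sham 3, and on the values as deposited (0.0624). Its differences within pairs were 0.76, 0.51 and 0.72, and with the block its adjusted p was 4.78e-04.

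The other 14 genes of this group did not pass without the block, and 3 of them passed with it, where 4.82% of all genes rose. Lig1, which joins Okazaki fragments, read 7.51, 7.61 and 7.73 in MCAO, against 6.90, 7.47 and 7.13 in sham, a difference of 0.45 ± 0.14 (adjusted p = 0.323, and 0.0206 with the block). Prim1, the catalytic primase subunit, read 8.23, 8.12 and 7.87 in MCAO, against 7.70, 7.91 and 7.45 in sham, where MCAO 3 lay below sham 2 (difference 0.39 ± 0.14, adjusted p = 0.415, and 0.0159 with the block). Rfc4, a clamp loader subunit, differed by 0.31 ± 0.14 (adjusted p = 0.621, and 0.0382 with the block). Without added normalization the blocked Rfc4 difference had an adjusted p of 0.0524.

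Rpa2, a subunit of the protein that coats single-stranded DNA, read 7.73, 7.84 and 7.73 in MCAO, against 7.47, 7.62 and 7.44 in sham, without overlap. The difference of 0.26 ± 0.081 did not pass (adjusted p = 0.313, and 0.0509 with the block). Pole, the catalytic subunit of the leading-strand polymerase, read 6.87, 6.68 and 6.76 in MCAO, against 6.34, 6.66 and 6.50 in sham, a difference of 0.27 ± 0.100 (adjusted p = 0.435, and 0.131 with the block). The remaining 9 genes, the polymerase subunits Pola1, Pola2, Pold1 and Pole2, the primase subunit Prim2, the clamp loader subunits Rfc2, Rfc3 and Rfc5, and the flap nuclease gene Fen1, differed by 0.036 for Rfc5 to 0.28 for Pole2. None of the 9 passed with or without the block. The group's median was 0.23 log2, and 6 of its 15 genes had groups that did not overlap. All MCAO arrays lay above all sham arrays in 8.43% of all genes.

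The nucleotide supply genes held the 2 largest differences of all members. Tk1 (probe set 1416258_at; gene at chr11:117815519-117826087), the thymidine salvage kinase, read 7.03, 7.23 and 7.07 in MCAO, against 6.32, 6.49 and 6.34 in sham. It rose 1.66-fold, by 0.73 ± 0.088 log2 (SE of 3 arrays per group; adjusted p = 0.0108), with the smallest p of all members. The pairs were nearly equal, at 0.71, 0.74 and 0.74, and among the omissions of 1 array the call was lost without sham 3 (adjusted p = 0.0807). It was also lost without both arrays numbered 2 and without both numbered 3.

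Rrm2, the small subunit of ribonucleotide reductase, had the largest mean difference and the widest spread. It read 9.56, 8.62 and 8.41 in MCAO, against 8.20, 8.25 and 7.82 in sham. MCAO 1 lay far above the other arrays, and the difference of 0.77 ± 0.28 log2 (adjusted p = 0.422, and 0.0131 with the block) was 0.42 without that array. All 3 Rrm2 probe sets were higher in MCAO, by 0.56 to 0.77. The large subunit gene Rrm1 read 8.75, 8.78 and 8.39 in MCAO, against 8.10, 8.31 and 7.92 in sham, without overlap (difference 0.53 ± 0.14, adjusted p = 0.182, and 0.00141 with the block).

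Tyms, the enzyme that makes thymidylate from deoxyuridylate, read 5.84, 6.10 and 5.80 in MCAO, against 5.90, 5.75 and 5.81 in sham. The groups overlapped (difference 0.091 ± 0.100, adjusted p = 0.938), and its 4 probe sets, with means of 5.61 to 5.87 over the 6 arrays, lay near the dim end of the scale. Dut, which removes dUTP, was 0.16 higher on its brightest probe set and 0.11 lower on the other (-0.11 ± 0.12). For Dut the brightest probe set gave an adjusted p of 0.609, and 0.256 with the block.

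Both measured genes of chromatin copying were higher. Uhrf1, which brings the maintenance DNA methyltransferase to new DNA, read 7.16, 6.91 and 6.73 in MCAO, against 6.56, 6.07 and 6.39 in sham, a difference of 0.59 ± 0.15 (adjusted p = 0.184, and 0.00372 with the block). Chaf1b, a subunit of the chaperone that places histones on new DNA, read 6.61, 6.68 and 6.56 in MCAO, against 6.18, 6.40 and 6.31 in sham, a difference of 0.32 ± 0.084 (adjusted p = 0.191, and 0.0251 with the block). The groups did not overlap in either gene. The dimmer probe set of Uhrf1 read 0.16 higher and that of Chaf1b 0.054 higher.

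The regulators of S phase entry had differences of 0.030 to 0.39 log2. Ccne1, a cyclin that drives the entry into S phase, read 7.004, 6.94 and 7.15 in MCAO, against 6.97, 7.02 and 7.01 in sham (difference 0.030 ± 0.080, adjusted p = 0.985, and 0.890 with the block). Its kinase Cdk2 read 6.94, 6.92 and 6.83 in MCAO, against 6.64, 6.84 and 6.67 in sham (difference 0.18 ± 0.082, adjusted p = 0.609, and 0.200 with the block). E2f1, an activator of replication genes, read 6.69, 6.69 and 6.76 in MCAO, against 6.62, 6.65 and 6.54 in sham (difference 0.11 ± 0.071, adjusted p = 0.832, and 0.479 with the block). MCAO and sham overlapped in Ccne1 and Cdk2 and did not in E2f1, whose other probe sets read 0.0046 and -0.018.

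E2f8, a repressor of the E2F family that is itself an E2F target, was the gene of this group with the clearest difference. This holds for its brightest probe set, while the dimmer one read 0.026 higher. E2f8 read 6.46, 6.31 and 6.51 in MCAO, against 6.12, 5.90 and 6.08 in sham, without overlap (difference 0.39 ± 0.092, adjusted p = 0.142, and 0.00648 with the block). Ccne2, the other cyclin E gene, was 0.18 ± 0.14 higher, with pairs at 0.13, 0.56 and -0.16. The median of the 5 regulators was 0.18 log2, and 1 of them passed with the block, where 4.82% of all genes rose.

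**Figure D2:**
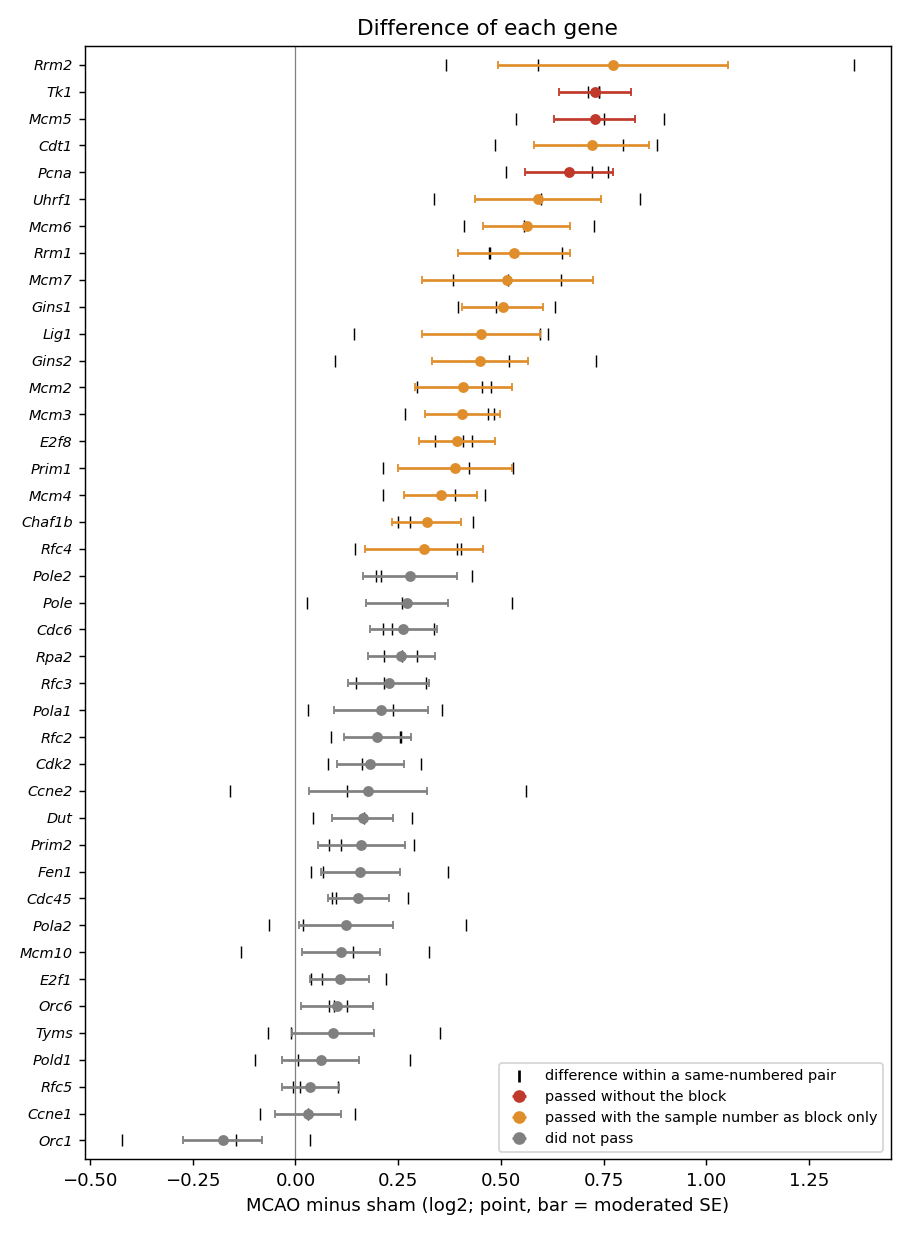
MCAO minus sham difference of each of the 41 genes on the log2 scale, as points with the moderated standard error, and the differences within the 3 same-numbered pairs as ticks. Tk1, Mcm5 and Pcna (red) passed without the block and 16 further genes (orange) passed with it, all of them above 0.

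Genes of related functions outside the list were counted in the same way. Of 72 other replication and S phase genes, 69 were measured: 2 rose, 0 fell and 67 did not pass, 14 rose with the block and 0 fell, and the median was 0.14 log2. Over all genes, 1.12% rose without the block and 4.82% with it. Ccna2, the S phase cyclin that partners CDK2, rose by 0.67 ± 0.11 log2 (SE; adjusted p = 0.0388), and Rbl1, a pocket protein that binds E2F factors, rose by 0.54 ± 0.094 (adjusted p = 0.0447). Ccna2 lost its call whichever of the 6 arrays was left out (up to an adjusted p of 0.175) and Rbl1 without all but sham 2 (up to 0.232). Dbf4, the activator of the kinase that fires origins, the repair gene Rad51ap1, the histone chaperone gene Asf1b and the replication fork gene Timeless were 0.56, 0.67, 0.53 and 0.35 higher. Their adjusted p were 0.0571, 0.0834, 0.118 and 0.128 without the block, and they passed with it (0.00353, 4.16e-04, 0.00714 and 0.0179).

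Genes of G2 and mitosis, the phases that follow replication, had a median difference of 0.48 log2. Of 39 measured, 10 rose, 0 fell and 29 did not pass, 31 rose with the block, and 28 had all MCAO arrays above all sham arrays. The shares over all genes were 1.12% rising without the block, 4.82% rising with it, and 8.43% with all MCAO arrays above. Cdk1, the kinase that starts mitosis, rose by 1.12 ± 0.14 log2, the mitotic cyclin gene Ccnb2 by 1.01 ± 0.096 and the proliferation marker Mki67 by 0.83 ± 0.11 (SE; adjusted p = 0.0123, 0.00457 and 0.0134). Cdk1 and Mki67 lost their calls without MCAO 2, MCAO 3 or sham 3 (adjusted p up to 0.0891 and 0.0768). Of 12 G1 cyclins, kinases and inhibitors, 1 rose, the cyclin D gene Ccnd1, by 1.21 ± 0.15 log2 (adjusted p = 0.0116, and 0.0743 without sham 3), 3 rose with the block, and the median was 0.15. The difference between these lists was not tested.

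**Figure D3:**
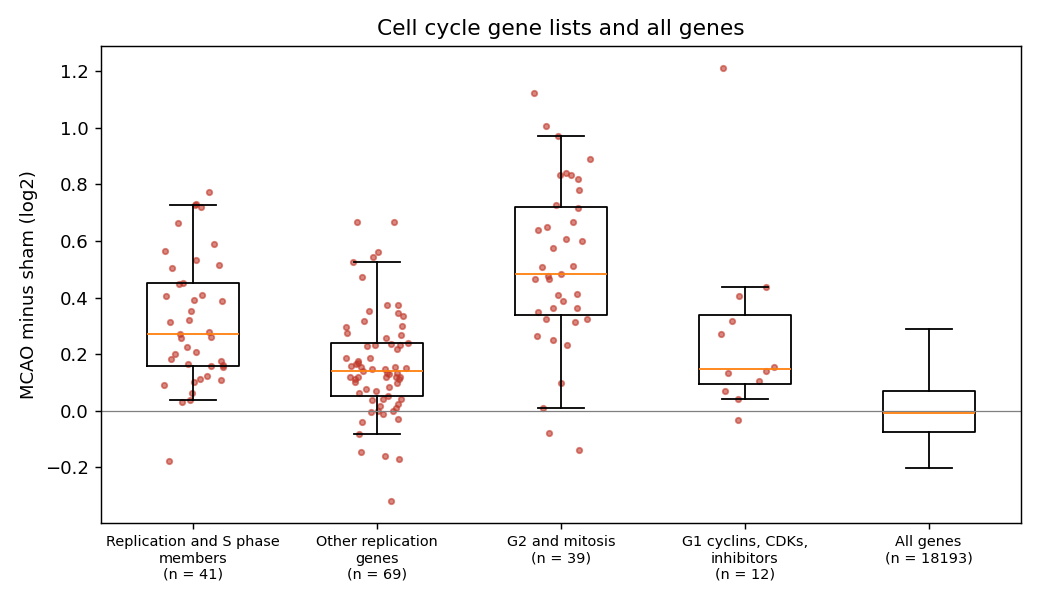
MCAO minus sham differences on the log2 scale for 4 gene lists and all genes, with boxes at the quartiles, the median as a line, whiskers at the 5th and 95th percentiles and points for single genes of the lists. The medians are 0.27 for the 41 replication and S phase genes, 0.14 for the other replication genes, 0.48 for G2 and mitosis, 0.15 for the G1 list and -0.0064 for all genes.

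Markers of several cell types were also higher in MCAO than in sham. The shares to set beside their calls are those of all genes, of which 1.12% rose without the block and 4.82% with it. The summed level of the 41 genes, with log2 values turned back to a linear scale, was 10135 to 11121 in MCAO arrays and 7406 to 8702 in sham arrays. Of 9 measured microglia markers 1 rose (6 with the block), namely Aif1, by 1.10 ± 0.17 log2 (adjusted p = 0.0258, and up to 0.151 without MCAO 2, MCAO 3, sham 2 or sham 3), and the summed level was 4280 to 7240 in MCAO and 3483 to 3846 in sham. Of 9 monocyte and macrophage markers 4 rose (5 with the block), led by the mannose receptor gene Mrc1 at 0.96 ± 0.080 log2 (adjusted p = 0.00304), with sums of 875 to 940 in MCAO and 668 to 708 in sham. None of these markers (0 of 9) exceeded the median gene in sham, and array values have no true 0.

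Reactive astrocyte markers rose in 7 of 10 genes (8 with the block), with sums of 6037 to 7539 in MCAO and 1496 to 1978 in sham. Of 15 neural stem cell markers 2 rose, Fabp7 by 1.66 log2 and Vcam1 by 0.82, and with the block 5 rose and 1 fell. The list's sums were 10714 to 10809 in MCAO and 5432 to 6093 in sham, its median difference was 0.25 log2 and 4 of the 15 had lower means in MCAO. Gfap, the astrocytic filament gene that SVZ stem cells also express, had a mean of 11.17 in MCAO (SD 1.10) and 8.48 in sham (SD 1.03), at an adjusted p of 0.140 and a blocked one of 5.64e-07. Among 9 markers of astrocytes in healthy tissue 2 rose (3 with the block). The part of these lists in the replication genes' difference was not tested.

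Lists of the SVZ's dividing and migrating neural cells had no calls without the block. Of 8 transit-amplifying progenitor markers 0 passed by limma, with or without the block, and 1 had an unadjusted p under 0.05, with sums of 1737 to 2132 in MCAO and 1655 to 1813 in sham. Differences in this list ran from -0.14 to 0.22 log2. Egfr, the growth factor receptor of these progenitors, had a mean of 7.498 in MCAO (SD 0.23) and 7.38 in sham (SD 0.15), at an adjusted p of 0.942. Of 9 neuroblast markers 0 passed (1 rose with the block, 2 with an unadjusted p under 0.05), with sums of 5089 to 6293 in MCAO and 4391 to 5234 in sham. Over all genes, 4.82% rose with the block and 8.77% had an unadjusted p under 0.05 without it. Differences of the neuroblast markers ran from -0.33 to 0.66 log2. Dcx, a microtubule-binding protein gene and the usual neuroblast marker, had a mean of 9.13 in MCAO (SD 0.16) and 9.01 in sham (SD 0.12), at an adjusted p of 0.896. Egfr, chosen after its values were seen, and Dcx, set by name, do not lead their lists by p. All MCAO arrays lay above all sham arrays in 1 progenitor and 1 neuroblast marker, and below in 1 neuroblast marker. Among all 18193 genes, 1534 lay above in this way and 977 below.

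Other lists likewise showed no calls without the block, by limma. With the counts at an unadjusted p under 0.05 in brackets, against 8.77% of all genes at that p, these were 7 oligodendrocyte precursor markers (0), 9 endothelial markers (2), 9 mural cell and fibroblast markers (1), 8 neutrophil markers (1), 9 lymphocyte markers (0), 8 ependymal markers (0), 7 choroid plexus markers (0), 7 striatal neuron markers (2) and 7 markers of myelinating oligodendrocytes (0). With the block 1 ependymal marker rose and 1 striatal marker fell, where 4.82% of all genes rose and 1.30% fell. All 7 striatal markers had lower means in MCAO, with sums of 19629 to 21764 in MCAO and 23053 to 26172 in sham. All 8 ependymal markers had higher means in MCAO, with a median difference of 0.25 log2, and none had groups free of overlap (0 of 8). In 8.43% of all genes all MCAO arrays lay above all sham arrays. The ependymal list's mean log2 level was 8.29, 8.90 and 8.33 on MCAO arrays 1, 2 and 3, against 8.07, 8.79 and 7.99 on sham arrays 1, 2 and 3, highest on both arrays numbered 2. Foxj1, the regulator of motile cilia in ependymal cells, read 7.68, 7.81 and 7.43 in MCAO, against 7.13, 7.74 and 7.30 in sham (adjusted p = 0.840). Some replication genes, such as Mcm7, Mcm2, Tk1 and Rrm1, were likewise highest of their group on both arrays numbered 2. Others, such as Mcm5, Pcna and Uhrf1, were not. The part of these lists in the replication genes' values was not tested.

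**Figure D4:**
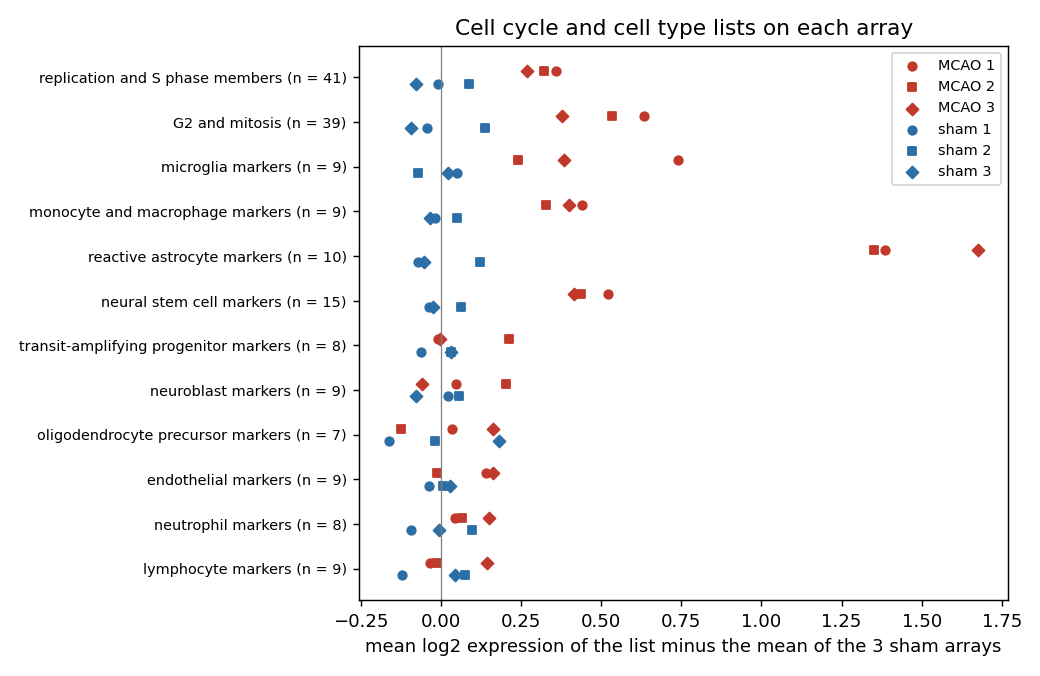
Mean log2 expression of 12 gene lists on each array, minus the mean of the 3 sham arrays, with MCAO arrays in red above sham arrays in blue. MCAO lies right of sham without overlap for the replication, mitosis, microglia, monocyte, reactive astrocyte and neural stem cell lists, and overlaps with sham for the progenitor, neuroblast, oligodendrocyte precursor, endothelial, neutrophil and lymphocyte lists.

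Several probe sets read most of these genes, which allowed a check within the arrays. Of the 41 genes 33 had more than 1 probe set, with 50 further probe sets in all. Of the 50, 41 were higher in MCAO, and 10 had a sign opposite to the brightest, 0 of them at an unadjusted p under 0.05. In 17 genes the brightest probe set had a name ending in _s_at, _x_at or _a_at, which can mark binding to several transcripts or related genes. In sham 17 of the 41 genes lay above the median gene.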

How the data were processed

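Biotin-labelled total RNA of 6 samples was measured on 1-colour arrays. The deposited values are log2 expression, 1 per probe set, from 4.80 to 14.68 for 45101 probe sets. How the authors corrected background, summarised probes and normalized arrays is not given in the sources used here. Medians lay between 6.57 and 6.59 and 90th percentiles between 8.85 and 9.06, so quantile normalization was added. Of the probe sets, 34945 had 1 gene symbol in the array's annotation, 932 several and 9160 none, with 64 controls left out, which gave 18193 genes, 9010 of them with several probe sets. Gene positions and promoters are RefSeq's, GRCm38.p6.

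The 2 groups were compared on the log2 scale with limma 3.58.1 (R 4.3.3; lmFit and eBayes), 2-sided, with Benjamini-Hochberg adjustment over all genes and a threshold of 0.05. Differences are MCAO minus sham with the moderated SE. The test was checked on simulated data that held no effect of the sample number. Of 50 genes changed by 0.5 log2, 29 were recovered without the block and 23 with it, so a difference of this size can fail to pass. All 50 genes changed by 1 log2 were recovered in the simulation. Of the genes left unchanged there, 7 were called without the block and 12 with it. Larger differences with a wide spread can still fail in the real data, as Gfap did without the block. With 3 arrays a group, whose number limits the precision, an exact permutation test cannot go below p = 0.1. Whether each array held RNA of a separate mouse is not stated, so p-values measure the spread between samples, which may be technical.

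Sample titles carry the numbers 1 to 3 in either group. Deviations from the group means correlated at 0.77, 0.44 and 0.48 between same-numbered arrays. Between the 6 differently numbered pairs of an MCAO and a sham array they correlated at -0.59 to 0.29. For this reason the number was used as a block beside the unblocked test. The block was thus chosen from these same data, and its p-values may be too small. The 42 members, 3 pathway lists and 16 marker lists were chosen with earlier results of these data known. All members are reported, with array values for the 20 smallest p-values, 12 genes set by name, and Orc1, the member with a lower mean. Of some other lists leading genes by p are named, but none of the progenitor and neuroblast lists. Gfap, Dcx and Foxj1 were set by name, and Egfr was chosen after its values were seen. Ppp1r1b and P2ry12 were also set by name but are not given.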

Additional observations from a re-analysis of the deposited data

How the results depend on the processing

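The number of calls depended on the setting more than the direction did. Members past the threshold numbered 3, and 2 without added normalization, with medians aligned only, or without genes below the median gene, and 3 with robust variance. They numbered 5 with probe sets averaged per gene, 5 of 37 with probe sets ending in _s_at, _x_at or _a_at left out, 5 with an intensity trend, and 6 with each probe set tested on its own. With the sample number as a replicate block they numbered 19, and 18 with that block and no added normalization. All-gene counts also moved: 203 rose in the main test, 188 without added normalization, 184 with medians aligned only and 198 with robust variance. Without genes below the median gene 137 of 9097 rose, and 173 of 16591 without probe sets of the 3 endings. Averaged probe sets gave 189, the intensity trend 259, and probe sets tested on their own 192. The block gave 877, and 766 without added normalization. Leaving out 1 array gave 0 to 5, with 0 without sham 3, 1 without MCAO 2 or MCAO 3 and 5 without sham 2, where 44, 152, 98 and 131 of all genes rose, against 203 with all arrays. Without both arrays numbered 1, 2 or 3 they were 3, 0 and 0 without the block, and 13, 22 and 13 with it, where 209, 30 and 0 of all genes rose without the block and 561, 1160 and 590 with it, and 12 members passed in all 3 of these blocked fits. Members higher in MCAO numbered 37 to 40 of 41 in the fits that tested all 41, and 33 of 37 without the shared probe sets, and the median difference lay between 0.21 and 0.33 in these fits. Leaving out genes below the median gene kept 21 members, all 21 higher, with a median of 0.35. That filter used the mean of all 6 arrays, and 17 members lay above the median gene in sham, so it favours genes high in MCAO and says nothing of the direction. Leaving out 1 array gave medians of 0.24 to 0.33.

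Signs turned in genes near 0. With probe sets ending in _s_at, _x_at or _a_at left out, Mcm10 read -0.068, Dut -0.11 and E2f1 -0.018. Without both arrays numbered 3, with or without the block, Pola2 read -0.023, Pold1 -0.046 and Ccne1 -0.028, and without both numbered 2 Tyms read -0.039 and Ccne2 -0.017. Leaving out 1 array gave Pold1 -0.0046 to 0.14, with the lowest without sham 3, Tyms -0.0028 to 0.15, with the lowest without MCAO 2, and Ccne1 -0.031 to 0.077, with the lowest without MCAO 3. None of these 8 genes passed in the unblocked or blocked test of all arrays, and the cause was not tested. Dim signal limits Tyms and other genes near the lower end of the scale.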
